A study of Mus musculus with 33 samples.

Results

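Amino acid transporters move amino acids, and a few related small molecules, across the membranes of the cell. The genes described here were those whose name on the array starts with Slc1a, Slc3a, Slc6a, Slc7a, Slc36a, Slc38a or Slc43a, without Slc38a1 and Slc38a4. This gave 54 genes of the 27671 on the array, represented by 88 probes. Within these families genes entered by name, whatever their values, but the families were chosen with earlier results of these data known. Slc38a1 and Slc38a4 fit the name rule and are counted below among other amino acid transporters. Among the 54 genes, Slc7a6os is no transporter: it is named for lying next to Slc7a6 on the opposite strand. The Slc6 family also holds carriers of monoamines, creatine, taurine and betaine.

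The preimplantation embryo takes up amino acids from its medium as substrates for protein synthesis, as osmolytes and as signals. Slc1 proteins carry glutamate or small neutral amino acids together with sodium. Slc6 proteins use sodium and chloride, Slc36 proteins use protons, and Slc38 proteins use sodium for glutamine and alanine. Slc7 holds single-protein carriers of arginine and lysine and the light chains of dimeric exchangers, which reach the membrane only when bound to a heavy chain of the Slc3 family. Leucine and arginine brought in by these carriers activate the kinase mTORC1, and shortage of amino acids activates the kinase Eif2ak4 and the transcription factor Atf4.

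Each of 33 arrays was hybridised with amplified RNA of 1 mouse blastocyst of the strain (C57BL/6NxDBA/2)F1, after 96 h of culture. Nuclear transfer had given the clones: 4 blastocysts each from Purkinje, hippocampal CA1 and Sertoli cells of males, 4 each from Purkinje and CA1 cells of females, and 3 from cumulus cells. Blastocysts from in vitro fertilisation (IVF), 7 male and 3 female, were the controls. Every clone had been exposed to 50 nM trichostatin A, an inhibitor of histone deacetylases, for 1 h while being activated, for 5 h together with cytochalasin B and for a last 2 h alone, and the IVF embryos had not been, so that cloning and drug cannot be told apart. Purkinje cells are the output neurons of the cerebellum, CA1 cells are pyramidal neurons of the hippocampus, Sertoli cells support germ cells in the testis, and cumulus cells surround the oocyte. The labels do not give the number of donor animals or transfer sessions, and the p-values therefore cover the spread from embryo to embryo and no more. A whole blastocyst was measured, so fewer cells of a type and less RNA per cell cannot be told apart.

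Levels are log2 of the signal over the 75th percentile of the signals of its array. All arrays share a floor at -3.42, below which values have no order. It is set by Sertoli replicate 4. The 75th percentile itself was 229.9 to 840.4 on the 8 Purkinje arrays and 917.4 to 1450 on the other 25, and the share of probes with signal well above background was 45.3% to 46.2% on the 4 Sertoli arrays, which stand apart, and 49% to 62.6% on the other 29. The neuronal and Sertoli arrays were read with another scanner and software version than the arrays of IVF and cumulus embryos. Scanner and clone type therefore cannot be told apart in those comparisons with IVF, nor slide and scan day in the cumulus comparison. Processed signals at or below 0 made up 15.7% to 23.3% of each of the 13 IVF and cumulus arrays, and 0% of each of the other 20. The part of this difference in rises from near the floor was not tested. Each comparison of a clone group with IVF embryos of the same sex shares its controls with the others of that sex.

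Of the 54 genes, 32 were measured well enough to be tested and 22 were not. The 22 were at or near the floor in every group. They included the cystine and glutamate exchanger light chain Slc7a11, on the floor in all 33 embryos although 4 probes represent it, the glutamine transporters Slc38a3 and Slc38a5, and the glial glutamate transporter Slc1a2. The transporters of noradrenaline (Slc6a2) and dopamine (Slc6a3) and the epithelial neutral transporter Slc6a19 were likewise on the floor in every group. A value on the floor gives only an upper bound, so these genes were not shown to be silent. Slc38a3, for one, was well above background on all 4 male CA1 arrays, yet above the shared floor on 1 of them. Among the genes tested, the Purkinje cell glutamate transporter Slc1a6 had group means of -3.42 to -3.06, with -3.16 in male and -3.42 in female Purkinje clones. Slc7a1, the CAT1 arginine carrier, was represented by 1 probe and had means of -3.42 to -2.77.

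**Figure D1:**
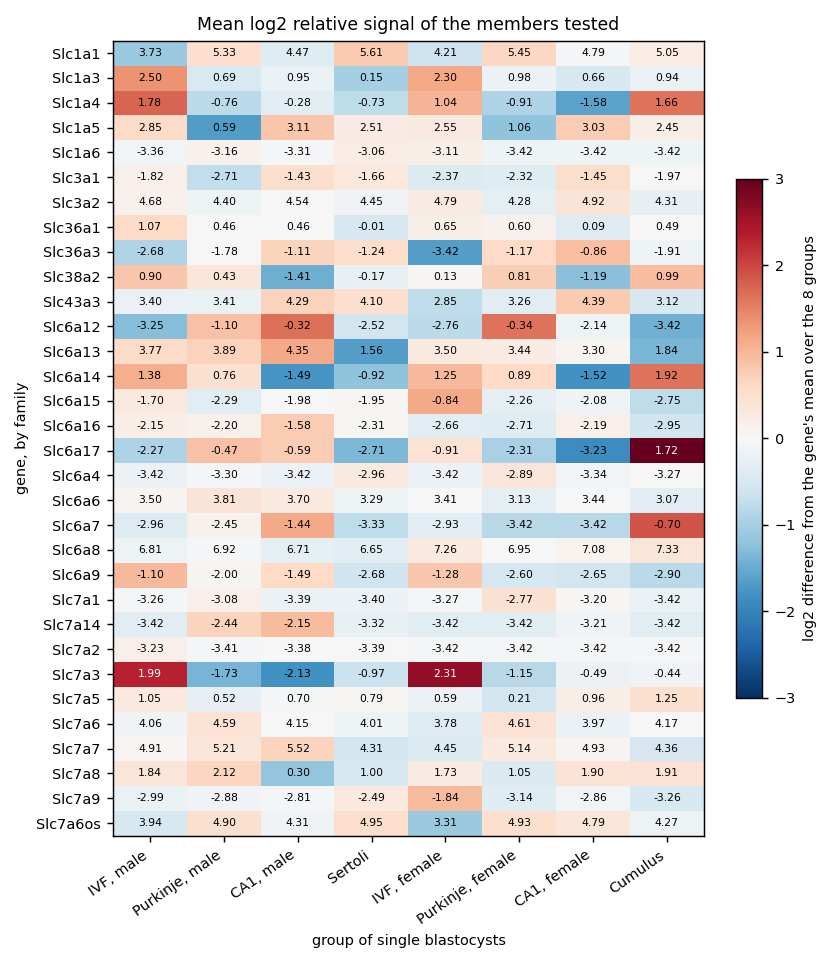
Mean level of each of the 32 genes tested in the 8 groups (numbers, log2 of signal over the 75th percentile of the array). Colour is the difference from that gene's own mean over the groups, so rows are not compared with one another; Slc7a3 was highest in both IVF groups (1.99 and 2.31) and Slc1a5 lowest in both Purkinje groups (0.59 and 1.06).

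In all, 15 of the 32 genes passed the test in at least 1 of the 6 comparisons with IVF, 17 in none, and none passed in both directions. Passing means an adjusted p under 0.05 in limma, with the adjustment made over all 15757 genes tested. In male Purkinje clones 3 members were higher and 4 lower, against 18.7% and 10.1% of all genes tested. In male CA1 clones 3 were higher and 6 lower (18.2% and 13.1% of all genes). In Sertoli clones the counts were 3 and 6 (16.2% and 10.2%). Female Purkinje clones had 5 higher and 2 lower (14.0% and 6.38%), and female CA1 clones 3 and 4 (9.47% and 4.68%). No member passed in cumulus clones, where 7 had an unadjusted p under 0.05 (2.03% and 3.16% of all genes passed). Shares of the 32 members were 9.38% to 15.6% higher and 6.25% to 18.8% lower in the first 5 comparisons, and those of all genes 9.47% to 18.7% and 4.68% to 13.1%. These ranges overlap, and nothing particular to the transporters as a set is read from them. The median change of the members was -0.22 to 0.11 over the 6 comparisons, and that of all genes -0.01 to 0.10.

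**Figure D2:**
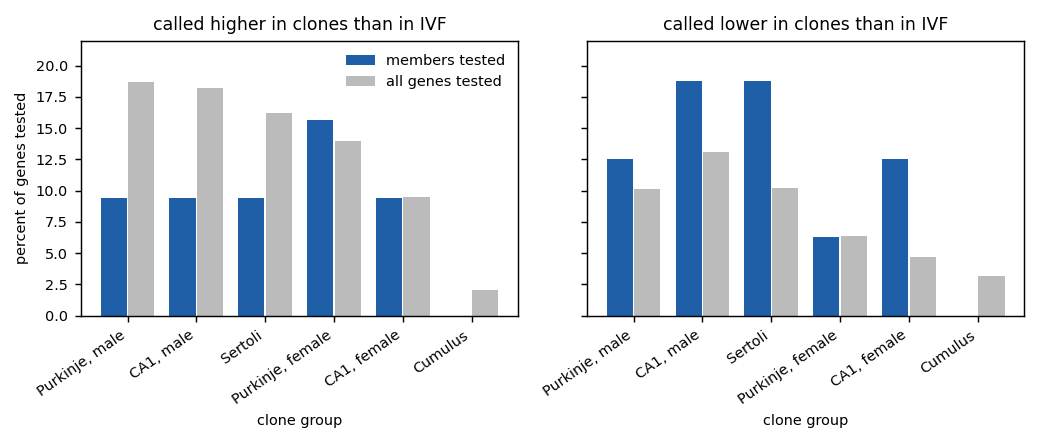
Percent of the 32 members tested (blue) and of all 15757 genes tested (grey) that were higher (left) or lower (right) in each clone group than in IVF blastocysts of the same sex. Members called lower reached 18.8% in male CA1 and Sertoli clones, against 13.1% and 10.2% of all genes.

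The balance of rises and falls depended on the scaling. Scaling to the array median gave 2 higher and 5 lower members in male Purkinje clones and 2 and 6 in female ones, and it moved the median over all genes from 0.08 to -0.11 and from 0.10 to -0.29. Background correction with normexp gave 8 and 5 and 6 and 4, with medians of all genes of 0.27 and 0.29. Quantile normalization gave 3 and 5 in female Purkinje clones. Normexp also gave 1 and 3 in female CA1 clones, and the authors' deposited values gave 4 and 5 in male CA1 clones. None of the 48 calls of the members named under the rule turned its direction under any of these settings.

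**Figure D3:**
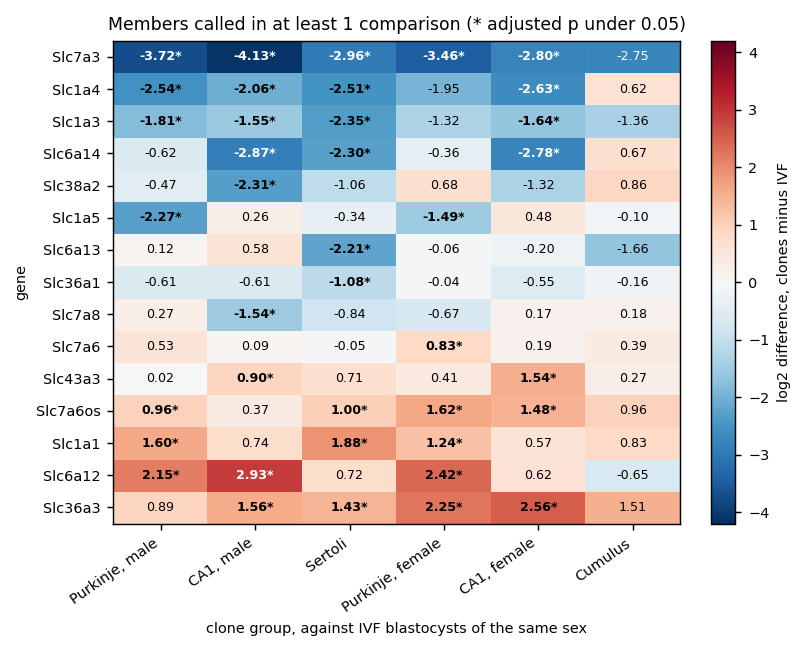
Change of the 15 members that passed in at least 1 comparison, as the log2 difference of group means, clones minus IVF of the same sex (colour and numbers); an asterisk marks an adjusted p under 0.05. Slc7a3 was below IVF in all 6 columns, passing in 5, while Slc1a5 passed in the 2 Purkinje columns only.

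Slc7a3 encodes CAT3, a carrier of arginine and lysine, and is X-linked. It had the largest fall of all members, and it was the only member that passed in 5 of the 6 comparisons. Male IVF embryos lay between 0.60 and 4.10 with a median of 1.63, and the female ones at 2.10, 1.13 and 3.71. The male Purkinje clones were at -3.42, -0.39, -1.67 and -1.43, the male CA1 clones at -0.04, -3.42, -2.39 and -2.69, and the Sertoli clones at -2.17, -0.74, 0.87 and -1.82. Of these 12 male clones only the Sertoli embryo at 0.87 reached into the range of the male IVF embryos. Female Purkinje clones were at -1.45, -1.03, -0.70 and -1.41, female CA1 clones at -0.48, -0.94, -0.68 and 0.14, and cumulus clones at 0.90, -2.53 and 0.32. All of them lay below the lowest female IVF embryo.

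Slc7a3 fell by 3.72 ± 0.73 (SE, 13.2-fold) in male Purkinje clones (adjusted p = 0.000434), by 4.13 ± 0.73 (17.5-fold, adjusted p = 9.58e-05) in male CA1 clones and by 2.96 ± 0.73 (7.79-fold, adjusted p = 0.00371) in Sertoli clones. These calls held under every alternative tried. In females it fell by 3.46 ± 0.89 (11-fold, adjusted p = 0.00708) in Purkinje and by 2.80 ± 0.89 (6.98-fold, adjusted p = 0.0345) in CA1 clones. The cumulus difference of -2.75 ± 0.95 did not pass (adjusted p = 0.0876). Without female IVF replicate 3 the female Purkinje difference was -2.76 (adjusted p = 0.061) and the female CA1 difference -2.11 (adjusted p = 0.191); the latter also missed without female IVF replicate 1 or female CA1 replicates 1, 2 or 3 (-2.91 to -2.65, adjusted p = 0.0578 to 0.0744). Across the 441 X-linked genes tested, 21.8%, 34.9% and 29.5% were lower in male Purkinje, male CA1 and Sertoli clones and 19.7%, 18.1% and 12.02% in the female Purkinje, CA1 and cumulus clones, and the part of X linkage in this fall was not tested. With scan day as a random block the female CA1 call was lost too (-2.76, adjusted p = 0.105). A single probe represents the gene.

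Of the other single-protein cationic carriers tested, Slc7a1, Slc7a2 and Slc7a14, none passed in any of the 6 comparisons. Their values in the IVF embryos were at or near the floor, so a fall in clones could not have been seen.

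Slc1a3, the glutamate transporter GLAST, fell in 4 clone groups. Male IVF embryos were between 1.51 and 3.21 (median 2.35) and the female ones at 2.51, 1.97 and 2.43. The 4 male Purkinje clones were at 1.04, 0.23, 0.63 and 0.86 and Sertoli clones at -0.11, 0.63, 1.08 and -0.99, all below every male IVF embryo, and male CA1 clones at 0.90, -0.13, 1.38 and 1.65, where 1 embryo overlapped. The female Purkinje (0.59, 1.10, 0.29 and 1.94), female CA1 (1.80, 0.14, 0.04 and 0.66) and cumulus clones (1.70, 0.06 and 1.07) all lay below the 3 female IVF embryos.

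Slc1a3 fell by 1.81 ± 0.42 in male Purkinje (3.5-fold, adjusted p = 0.00193), by 1.55 ± 0.42 in male CA1 (2.93-fold, adjusted p = 0.00556), by 2.35 ± 0.42 in Sertoli (5.08-fold, adjusted p = 0.000157) and by 1.64 ± 0.51 in female CA1 clones (3.12-fold, adjusted p = 0.0297). Differences of -1.32 in female Purkinje (adjusted p = 0.0643) and -1.36 in cumulus clones (adjusted p = 0.143) did not pass. The male CA1 call was lost with the mean over both probes kept (-0.81, adjusted p = 0.0582), and the female CA1 call without female IVF replicate 1 or 3 or female CA1 replicate 2 or 3 (-1.58 to -1.44, adjusted p = 0.0762 to 0.0955). The female CA1 call was also lost with scan day as a random block (-1.58, adjusted p = 0.105). The second probe kept moved by -0.68, -0.08, -0.59 and -1.57 in these 4 groups.

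Slc1a4, the ASCT1 exchanger of serine, alanine and cysteine, fell in the same 4 groups and not in cumulus clones. Male IVF embryos ranged from -0.48 to 2.87 with a median of 1.98, and female IVF embryos were at 1.54, -0.75 and 2.33. The 4 male Purkinje clones were at -1.65, -0.47, 0.06 and -0.98, male CA1 clones at 0.58, -0.89, 0.02 and -0.83, and Sertoli clones at 0.64, -1.53, -1.89 and -0.14. Female Purkinje clones were at -0.90, -1.29, -0.82 and -0.62 and female CA1 clones at -2.47, -0.21, -3.42 and -0.24, while cumulus clones were at 1.83, 0.15 and 3.00. A single low IVF embryo in each sex overlapped the clones, and the cumulus clones lay within or above the IVF range.

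Slc1a4 fell by 2.54 ± 0.67 (5.82-fold, adjusted p = 0.00572) in male Purkinje, by 2.06 ± 0.67 (4.17-fold, adjusted p = 0.0206) in male CA1, by 2.51 ± 0.67 (5.71-fold, adjusted p = 0.0068) in Sertoli and by 2.63 ± 0.82 (6.17-fold, adjusted p = 0.0314) in female CA1 clones. Its second, dimmer probe moved by -2.10, -0.84, -1.79 and -0.29 in these groups, and the mean over both gave -1.46 in female CA1 clones (adjusted p = 0.139). With scan day as a random block neither CA1 call passed (-2.11 in males, adjusted p = 0.055, and -2.57 in females, adjusted p = 0.101). In female Purkinje clones the difference was -1.95 (adjusted p = 0.0928), and in cumulus clones 0.62 (adjusted p = 0.785). The male CA1 call was lost without male CA1 replicate 2 or 4 (-1.86 and -1.88, adjusted p = 0.0683 and 0.0691), and the female CA1 call without female IVF replicate 1 or 3 or female CA1 replicate 1 or 3 (-2.38 to -1.98, adjusted p = 0.0964 to 0.179).

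Slc1a5, the glutamine exchanger ASCT2, was low in the Purkinje clones of both sexes. The 4 male Purkinje clones were at 0.77, 1.10, 0.52 and -0.06 and female ones at 1.26, 1.42, 0.38 and 1.18. CA1 clones were at 3.24, 2.89, 2.92 and 3.39 in males and 2.52, 3.42, 3.20 and 2.99 in females, Sertoli clones at 2.51, 2.06, 2.08 and 3.38, and cumulus clones at 3.16, 1.97 and 2.21. Male IVF embryos were between 1.18 and 3.52 (median 2.96) and female ones at 2.94, 2.14 and 2.57. All 8 Purkinje clones were below every other embryo of their own sex, in males and in females alike.

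Against IVF, Slc1a5 fell by 2.27 ± 0.34 (4.81-fold, adjusted p = 2.4e-05) in male and by 1.48 ± 0.42 (2.8-fold, adjusted p = 0.0123) in female Purkinje clones. The male call held under all 26 alternatives; the female difference was -1.29 without female IVF replicate 1 (adjusted p = 0.0629). Differences in the other 4 comparisons were -0.34 to 0.48 and did not pass. Male Purkinje clones were also lower than male CA1 clones (fell by 2.52 ± 0.39, 5.75-fold, adjusted p = 6.48e-05) and than Sertoli clones (3.79-fold, adjusted p = 0.003), and female Purkinje clones lower than female CA1 clones (3.92-fold, adjusted p = 0.00164). The Purkinje arrays had the lowest signal. Without the 5 whose 75th percentile was under 500, which leaves 2 male Purkinje embryos, the male differences from IVF and from CA1 clones still passed and that from Sertoli clones did not (-1.57, adjusted p = 0.122). A single female Purkinje embryo is then left, and its differences were -1.28 from IVF and -1.77 from CA1 clones.

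**Figure D4:**
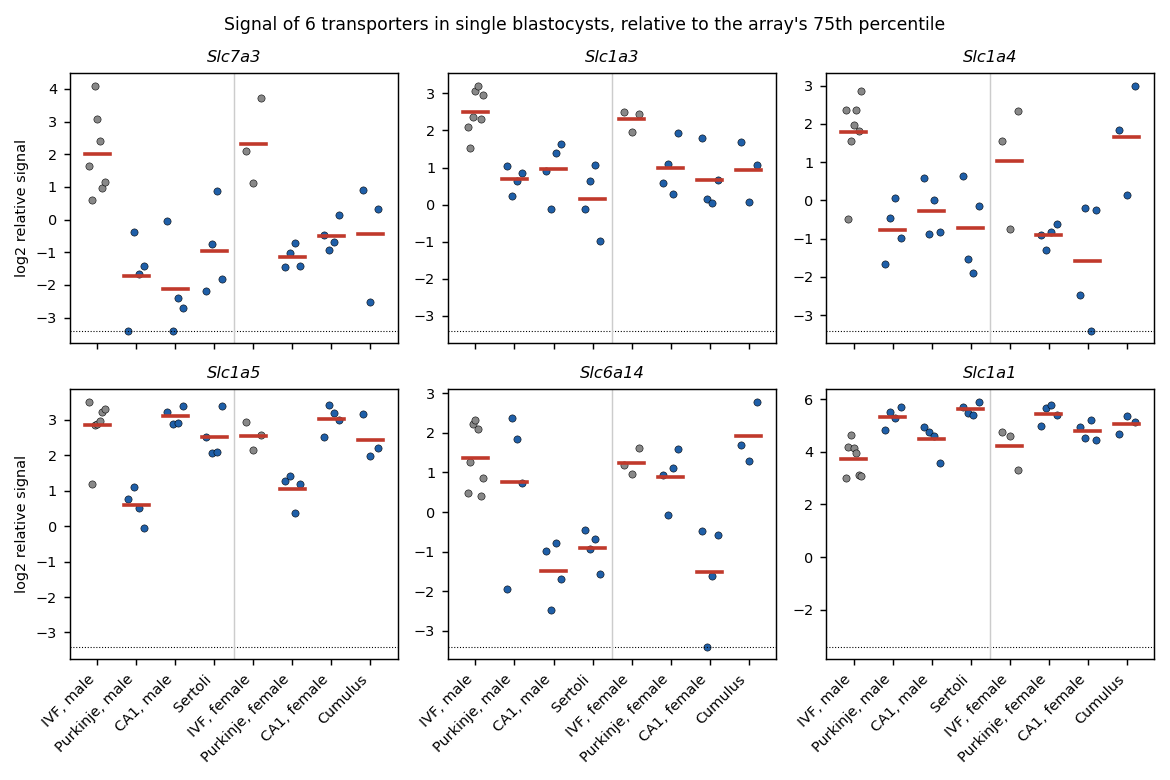
Level of 6 transporters in each blastocyst (points; grey IVF, blue clones; red lines are group means; the dotted line is the floor at -3.42), as log2 of signal over the 75th percentile of the array. The 8 Purkinje clones lie at -0.06 to 1.42 for Slc1a5, and CA1 and Sertoli clones at -3.42 to -0.47 for Slc6a14.

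Slc1a1, the neuronal and epithelial glutamate transporter EAAT3, rose in 3 groups. Male IVF embryos were between 3.00 and 4.62 (median 3.94) and female ones at 4.75, 4.60 and 3.29. The 4 male Purkinje clones were at 4.84, 5.51, 5.28 and 5.68, Sertoli clones at 5.68, 5.47, 5.38 and 5.91, and female Purkinje clones at 4.98, 5.65, 5.77 and 5.40, each above every IVF embryo of its sex. Male CA1 clones, at 4.93, 4.76, 4.60 and 3.59, and female CA1 clones, at 4.95, 4.52, 5.22 and 4.46, overlapped the IVF embryos.

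Slc1a1 rose by 1.60 ± 0.31 (3.03-fold, adjusted p = 0.00039) in male Purkinje and by 1.88 ± 0.31 (3.69-fold, adjusted p = 7.1e-05) in Sertoli clones, under every alternative tried. The rise of 1.24 ± 0.38 in female Purkinje clones (2.35-fold, adjusted p = 0.0216) was lost without female IVF replicate 3 (0.78, adjusted p = 0.2) or female Purkinje replicate 2 or 3 (1.17 and 1.13, adjusted p = 0.0572 and 0.06), with scan day as a random block (adjusted p = 0.0568) and with scaling to the array median (0.65, adjusted p = 0.269). The differences in male CA1 (0.74), female CA1 (0.57) and cumulus clones (0.83) did not pass. Its second probe gave 2.36 in male CA1 clones, where the brighter one gave 0.74, and 0.67 in male Purkinje clones, so the probes disagree on the size by donor.

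The Slc7 light chains and Slc3 heavy chains, which form the exchangers of systems L and y+L, passed in few comparisons. Slc3a2, the 4F2 heavy chain, had group means of 4.28 to 4.92, and it passed in no comparison. Slc7a5, the LAT1 light chain for leucine and other large neutral amino acids, had means of 0.21 to 1.25 and passed in none. Slc7a7, the light chain y+LAT1, had means of 4.31 to 5.52 and passed in no comparison with IVF. Slc7a6, the light chain y+LAT2, rose by 0.83 ± 0.29 in female Purkinje clones (1.78-fold, adjusted p = 0.0434), a call kept under 7 of 22 alternatives. It was lost without female IVF replicate 1, 2 or 3 or female Purkinje replicate 1, 2 or 3 (0.71 to 0.93, adjusted p = 0.0615 to 0.125), and the value was 0.18 with normexp and 0.25 with scaling to the array median. A second probe differed in pattern, with 0.59 in female Purkinje clones, 0.98 in male Purkinje, 1.18 in Sertoli and 1.15 in cumulus clones, so where Slc7a6 was higher depends on the probe.

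Slc7a8, the LAT2 light chain, fell by 1.54 ± 0.43 (2.91-fold, adjusted p = 0.00723) in male CA1 clones, which were at 0.63, -0.54, 0.47 and 0.67. The 7 male IVF embryos lay between 0.54 and 2.69 with a median of 2.05, and the lowest overlapped the clones. Male Purkinje clones were at 0.01, 3.27, 2.76 and 2.43, and the difference of 1.81 ± 0.48 between the 2 neuronal groups passed (3.51-fold, adjusted p = 0.0101). This call was lost in a fit of only these 2 groups (adjusted p = 0.1415) and without the low-signal Purkinje arrays (1.33, adjusted p = 0.2635). Female CA1 clones were at 2.42, 1.51, 1.80 and 1.86, and their difference from female IVF embryos was 0.17.

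Slc6a14, the B0,+ carrier of neutral and basic amino acids, is X-linked. It was low in CA1 and Sertoli clones and not in Purkinje or cumulus clones. Male CA1 clones were at -1.0, -2.48, -0.78 and -1.70, female CA1 clones at -0.48, -3.42, -1.63 and -0.57, and Sertoli clones at -0.47, -0.94, -0.69 and -1.57. Male IVF embryos lay between 0.40 and 2.32 (median 1.26) and female ones at 1.18, 0.97 and 1.61. All 12 of these clones were below every IVF embryo of their sex. Male Purkinje clones were at -1.93, 2.39, 1.86 and 0.73, female Purkinje clones at 0.93, -0.08, 1.10 and 1.60, and cumulus clones at 1.68, 1.28 and 2.79.

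Slc6a14 fell by 2.87 ± 0.61 (7.3-fold, adjusted p = 0.000733) in male CA1 and by 2.30 ± 0.61 (4.91-fold, adjusted p = 0.00671) in Sertoli clones, both under every alternative tried, and by 2.78 ± 0.75 (6.85-fold, adjusted p = 0.0134) in female CA1 clones. The last was lost without female IVF replicate 3 (-2.60, adjusted p = 0.0548) or female CA1 replicate 2 (-2.14, adjusted p = 0.058). Purkinje clones were higher than CA1 clones by 2.25 ± 0.69 in males (4.76-fold, adjusted p = 0.0232) and by 2.41 ± 0.69 in females (5.32-fold, adjusted p = 0.0232). The male difference was lost without any of 3 Purkinje replicates (2, 3 and 4) or 2 CA1 replicates (2 and 4) (1.71 to 2.26, adjusted p = 0.0547 to 0.0989), and the female one without Purkinje replicate 3 or 4 or CA1 replicate 2 (1.78 to 2.34, adjusted p = 0.0649 to 0.114). With scan day as a random block neither difference between Purkinje and CA1 clones passed (adjusted p = 0.0848 in males and 0.0965 in females), nor did the fall in female CA1 clones (adjusted p = 0.0577). A second probe moved by -1.28, -1.61 and -1.82 in male CA1, Sertoli and female CA1 clones against IVF.

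Slc6a12 carries betaine and GABA, and its neighbour on the chromosome, Slc6a13, carries GABA and taurine. Of the male IVF embryos 4 of 7 were on the floor for Slc6a12 and the highest was at -2.87. Male CA1 clones were at -0.41, -0.07, -0.49 and -0.31, male Purkinje clones at 1.60, -2.32, -1.94 and -1.73, and 3 of the 4 Sertoli clones were on the floor with the other at 0.16. Female Purkinje clones were at -1.14, -0.23, -0.34 and 0.33, above the female IVF embryos at -1.86, -3.01 and -3.42, while all 3 cumulus clones were on the floor. Both neuronal groups of males and the female Purkinje clones thus lay wholly above their IVF embryos.

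Slc6a12 rose by 2.93 ± 0.61 (7.62-fold, adjusted p = 0.000555) in male CA1 clones, under every alternative, by 2.15 ± 0.61 (4.44-fold, adjusted p = 0.00917) in male Purkinje and by 2.42 ± 0.74 (5.34-fold, adjusted p = 0.0217) in female Purkinje clones. With many values on the floor, these fold changes understate the difference if dim signals are alike on the arrays of either scanner, which was not tested. Without male Purkinje replicate 1, the embryo at 1.60, the male Purkinje difference was 1.25 (adjusted p = 0.0889). The female call was lost without female Purkinje replicate 4 or female IVF replicate 2 or 3 (2.09 to 2.29, adjusted p = 0.0625 to 0.1), and with scan day as a random block (adjusted p = 0.069).

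Slc6a13 fell by 2.21 ± 0.67 (4.62-fold, adjusted p = 0.0155) in Sertoli clones, which were spread over -0.72, 0.59, 1.58 and 4.79. Male IVF embryos were between 2.65 and 4.62 (median 3.48), so 3 Sertoli clones were below all of them and 1 above. The call was lost without Sertoli replicate 1 or 2 (-1.45 and -1.88, adjusted p = 0.123 and 0.0704), and with scan day as a random block (adjusted p = 0.0506). The second probe gave -2.35. In cumulus clones, at 2.42, 1.04 and 2.06, the difference from female IVF embryos was -1.66 and did not pass.

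**Figure D5:**
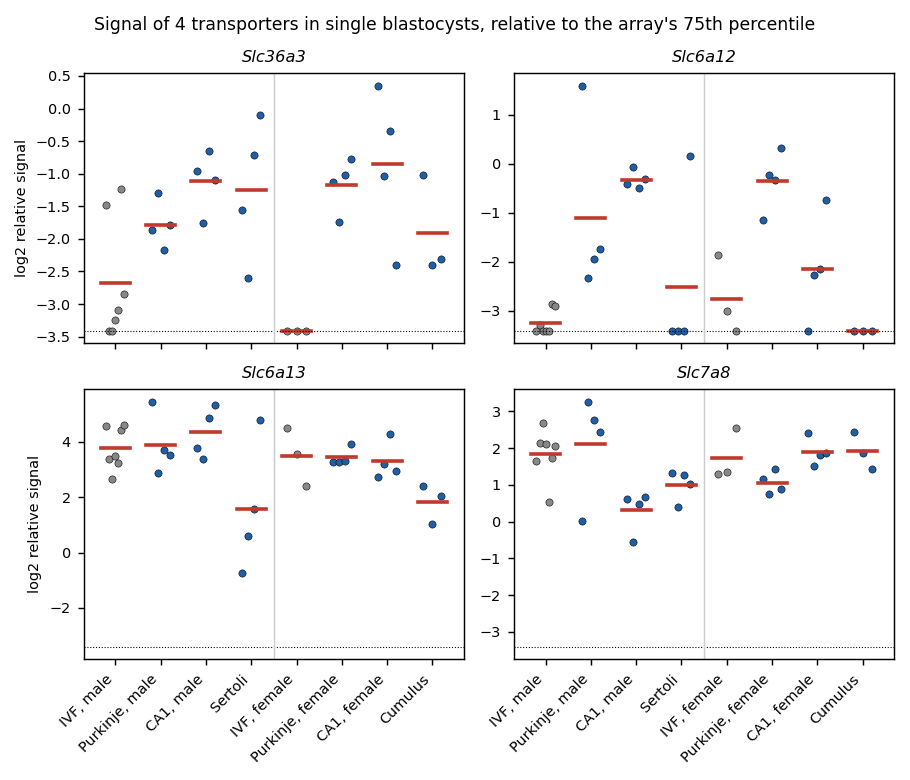
Level of Slc36a3, Slc6a12, Slc6a13 and Slc7a8 in each blastocyst (points; grey IVF, blue clones; red lines are group means; the dotted line is the floor at -3.42), as log2 of signal over the 75th percentile of the array. Sertoli replicate 4 stands apart for Slc6a12 (0.16) and for Slc6a13 (4.79).

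Slc6a8, the creatine transporter, had means of 6.65 to 7.33 in all 8 groups, and Slc6a6, the taurine transporter, means of 3.07 to 3.81. Neither passed in any comparison. Slc6a8 is X-linked, as are Slc7a3 and Slc6a14. Slc6a9, the glycine transporter GlyT1 by which early embryos regulate their volume, had means of -1.10 and -1.28 in male and female IVF embryos and of -2.90 to -1.49 in the clone groups. The male IVF embryos alone spread from -3.42 to 1.18 for it, and no comparison passed. Of the 11 Slc6 members tested, 1 passed as higher in each of the male Purkinje, male CA1 and female Purkinje comparisons (Slc6a12), and 1, 2 and 1 as lower in male CA1, Sertoli and female CA1 clones.

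Slc36a3, a relative of the proton-coupled carriers of glycine and proline, rose in 4 groups. All 3 female IVF embryos were on the floor, and the male ones lay between -3.42 and -1.23 (median -3.09). Female Purkinje clones were at -1.13, -1.74, -1.02 and -0.77 and female CA1 clones at 0.35, -1.04, -0.34 and -2.41, all above the floor. Male CA1 clones were at -0.95, -1.76, -0.65 and -1.09 and Sertoli clones at -1.56, -2.60, -0.72 and -0.10, overlapping the 2 highest male IVF embryos.

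Against the floor, Slc36a3 was at least 4.76-fold higher in female Purkinje (adjusted p = 0.00701) and at least 5.89-fold higher in female CA1 clones (adjusted p = 0.00379). These bounds take dim signals as alike on the arrays of either scanner, which was not tested. Slc36a3 rose by 1.56 ± 0.47 (2.95-fold, adjusted p = 0.0131) in male CA1 and by 1.43 ± 0.47 (2.7-fold, adjusted p = 0.0264) in Sertoli clones. With a doubled floor the male CA1 (1.00, adjusted p = 0.0793), Sertoli (0.92, adjusted p = 0.118) and female Purkinje (1.25, adjusted p = 0.0936) differences did not pass, and the Sertoli one was also lost without male IVF replicate 2 or Sertoli replicate 3 or 4 (1.05 to 1.31, adjusted p = 0.0511 to 0.136) and with scan day as a random block (adjusted p = 0.0793). A second probe rose alike, with 1.42 to 2.35 in these 4 groups.

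Slc38a2, the SNAT2 glutamine and alanine transporter of system A, fell by 2.31 ± 0.75 in male CA1 clones (4.96-fold, adjusted p = 0.0202). These were at 0.29, -3.42, -0.28 and -2.25, against male IVF embryos between -1.0 and 1.86 (median 0.95), so 2 clones were below all IVF embryos and 2 within their range. The call was lost without male CA1 replicate 2 or 4 (-1.64 and -2.03, adjusted p = 0.128 and 0.0774). With scan day as a random block it did not pass (adjusted p = 0.0621). The 3 further probes of Slc38a2 gave -3.33, -1.58 and -1.32 in these clones. They disagree elsewhere: the nearly as bright one gave -1.91, -1.99, -1.91 and -2.0 in male Purkinje, Sertoli, female Purkinje and female CA1 clones, where the probe used gave -0.47, -1.07, 0.68 and -1.32. Slc43a3, a nucleobase carrier named with the Slc43 family, rose by 1.54 ± 0.41 (2.9-fold, adjusted p = 0.013) in female CA1 and by 0.90 ± 0.34 (1.86-fold, adjusted p = 0.0437) in male CA1 clones. The female rise was lost without female IVF replicate 3 (1.28, adjusted p = 0.0802) and with scan day as a random block (1.45, adjusted p = 0.0598), and the male one under 16 of 26 alternatives, among them leaving out any of 3 male IVF (3, 4 and 5) or any of 4 male CA1 embryos (0.69 to 0.99, adjusted p = 0.0512 to 0.147). Slc36a1, the lysosomal PAT1 carrier, fell by 1.08 in Sertoli clones (2.12-fold, adjusted p = 0.00904); it lies outside the rule for naming and was chosen after its values were seen.

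Slc7a6os, the gene beside Slc7a6, rose in 4 groups. Male IVF embryos lay between 3.31 and 4.30 (median 4.10) and female ones at 2.66, 3.39 and 3.89. Male Purkinje clones were at 4.93, 4.36, 5.12 and 5.19, Sertoli clones at 5.00, 4.85, 4.88 and 5.07, female Purkinje clones at 4.45, 5.46, 4.95 and 4.86 and female CA1 clones at 5.41, 4.93, 3.95 and 4.85. All 16 were above every IVF embryo of their sex. The rises were 1.94-fold, 2.01-fold, 3.07-fold and 2.78-fold (adjusted p = 0.00388, 0.0029, 0.000394 and 0.00126) in this order of groups. With normexp the rises in male Purkinje, Sertoli and female CA1 clones did not pass (0.48, 1.01 and 1.29, adjusted p = 0.294, 0.0503 and 0.0775).

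Between clone groups few members passed. Male Purkinje and CA1 clones differed in 3 members, Slc1a5, Slc6a14 and Slc7a8, where 18.7% of all genes differed in either direction. Of these, 2 were higher and 1 lower in Purkinje clones. Scaling to the array median gave 1 higher and 2 lower: Slc6a14 no longer passed (2.12, adjusted p = 0.0504), Slc1a5 and Slc7a8 passed in the same direction, and another member was called lower. Male Purkinje and Sertoli clones differed in Slc1a5 alone (4.72% of all genes), with normexp in 1 member of either direction. Male CA1 and Sertoli clones differed in 4 members (12.1% of all genes). CA1 clones were lower in Slc1a1 (fell by 1.14, 2.21-fold, adjusted p = 0.0327) and higher in Slc6a12 (4.61-fold, adjusted p = 0.0348), Slc6a13 (6.9-fold, adjusted p = 0.0166) and Slc7a7 (2.31-fold, adjusted p = 0.0261). The direction for Slc1a1 depends on the probe: its second probe was above male IVF by 2.36 in CA1 and by 1.55 in Sertoli clones, and the mean over both gave -0.17 (adjusted p = 0.775). With scan day as a random block none of the 4 passed (adjusted p = 0.113, 0.124, 0.076 and 0.0982). All 4 of these calls were lost without Sertoli replicate 2, with differences of -1.19, 1.91, 2.46 and 1.17 (adjusted p = 0.054, 0.11, 0.058 and 0.059). They were also lost without male CA1 replicate 4, with -0.85, 2.20, 2.45 and 1.20 (adjusted p = 0.169, 0.0888, 0.077 and 0.0707). The split of 3 higher and 1 lower was 3 and 0 with quantile normalization and 1 and 0 with normexp. Female Purkinje and CA1 clones differed in Slc1a5 and Slc6a14 (11.1% of all genes), 1 lower and 1 higher in Purkinje clones, against 5 lower and 0 higher with scaling to the array median. For Slc1a5 and Slc6a14 the direction was the same in the 2 sexes, whose embryos are separate samples, although the Purkinje arrays of both sexes share 1 scan day and the CA1 arrays another. The part of scan day cannot be told apart from donor type here; as a random block it left the Slc1a5 calls and removed those of Slc6a14.

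No member differed between male and female IVF embryos (2 at an unadjusted p under 0.05; 0.425% of all genes passed). The change in Purkinje clones did not differ between the sexes for any member (1 at an unadjusted p under 0.05; 0.0571% of all genes), nor did the change in CA1 clones (4 at an unadjusted p under 0.05; 1.14% of all genes). For Slc7a3 the difference between the male and female changes was -0.26 ± 1.16 (SE) in Purkinje and -1.33 ± 1.16 in CA1 clones, so intervals of this width leave room for sizeable differences.

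In all, 5 lists of genes related to amino acid handling were counted in the same fit. Their counts are to be read against the shares of all genes called, which for higher genes were 18.7%, 18.2% and 16.2% in the male and 14.0%, 9.47% and 2.03% in the female comparisons, and for lower genes 10.1%, 13.1% and 10.2% and then 6.38%, 4.68% and 3.16%. Of 24 tested genes of amino acid synthesis, 11, 7 and 6 were lower in Purkinje, CA1 and Sertoli clones of males and 7, 2 and 5 in Purkinje, CA1 and cumulus clones of females. In the same order 0, 1 and 1 and then 1, 0 and 0 were higher, and the medians lay between -0.66 and -0.19. The largest falls were those of Gpt2, an alanine aminotransferase (fell by 2.52 in female Purkinje clones), and Oat, ornithine aminotransferase (fell by 2.30 in male CA1 clones). Oat was lower in all 5 groups other than cumulus. Cth, which makes cysteine, rose by 1.58 in Sertoli clones, and Bcat1, a branched-chain aminotransferase, by 1.03 in female Purkinje clones.

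Of 24 genes of amino acid sensing to mTORC1, 6, 4, 5, 3, 2 and 0 were higher and 2, 4, 2, 2, 0 and 1 lower in that order of groups. Sesn1, a leucine-responsive inhibitor of the pathway, rose by 1.67 in Sertoli clones and Tsc1, another inhibitor, by 1.41 in female CA1 clones. Sesn3, of the same family as Sesn1, fell by 2.23 in cumulus clones and Depdc5, a GATOR1 subunit, by 1.94 in female Purkinje clones. Of 6 regulators of transporter turnover, 1, 0, 0, 1, 0 and 0 were higher and 1, 1, 0, 0, 0 and 0 lower, with the ubiquitin ligase Ubr1 at 1.28 in female Purkinje clones, Nedd4l at -1.15 in male CA1 and Nedd4 at -1.07 in male Purkinje clones. Of 17 other amino acid transporters, 4, 3, 3, 2, 3 and 1 were higher and 0, 0, 2, 1, 0 and 0 lower. These included Slc38a1 at 1.84 in male Purkinje and Slc38a4 at 2.05 in cumulus clones, and at the other end the peptide carrier Slc15a2 at -1.67 in Sertoli and the mitochondrial glutamate carrier Slc25a22 at -1.55 in female Purkinje clones.

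Of 15 genes of the amino acid deprivation response, 3, 2, 0, 1, 1 and 0 were higher and 4, 3, 3, 2, 1 and 0 lower. Cebpb, a transcription factor that pairs with Atf4, rose by 2.21 in female Purkinje clones, and Sesn2, a sensor of leucine, by 1.14 in male Purkinje clones. Stc2, a secreted glycoprotein, fell by 2.42 and Vldlr, a lipoprotein receptor, by 1.75 in male CA1 clones. Atf4 itself, named after its values were seen because of the motif below, fell by 0.72, 0.72, 0.78, 0.97 and 0.93 in the 5 groups other than cumulus, where the difference was -0.26.

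The element bound by Atf4 with a C/EBP partner was searched for in promoters, as TGATGNAA on both strands, since it links transporter genes to amino acid supply. RefSeq promoters of GRCm38.p6, from 250 bases before to 50 after the start of the gene, were at hand for 36 of the 54 members. Slc7a3, Slc1a5 and Slc7a5 were among the members without one and were not searched. The 36 have 55 promoters in the table, since a gene can have several. The motif was found in 4 of the 55, those of Slc1a4, Slc7a7 and Slc7a11, and in 3.97% of all 32851 promoters of this length. The Slc7a7 promoters with a match overlap and hold the same site, which is thus counted more than once. Slc1a4 fell in 4 clone groups, Slc7a7 passed in no comparison with IVF, and Slc7a11 was on the floor in every embryo. A promoter of each is shown with that motif in capitals, 5′ to 3′ on the strand of the gene, beside that of Slc1a3, which fell in the same 4 groups as Slc1a4 and holds no match.
Slc1a4: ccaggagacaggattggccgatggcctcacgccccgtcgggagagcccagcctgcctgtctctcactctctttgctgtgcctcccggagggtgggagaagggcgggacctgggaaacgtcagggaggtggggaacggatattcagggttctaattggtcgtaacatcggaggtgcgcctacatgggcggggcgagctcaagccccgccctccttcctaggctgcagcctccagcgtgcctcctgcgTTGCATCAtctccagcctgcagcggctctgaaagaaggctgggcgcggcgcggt
Slc7a7: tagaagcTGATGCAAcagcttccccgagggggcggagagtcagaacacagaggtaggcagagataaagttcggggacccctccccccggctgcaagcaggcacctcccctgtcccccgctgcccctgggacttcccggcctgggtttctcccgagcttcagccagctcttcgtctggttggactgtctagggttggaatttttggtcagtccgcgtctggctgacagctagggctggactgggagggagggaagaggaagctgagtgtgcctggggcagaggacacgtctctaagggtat
Slc7a11: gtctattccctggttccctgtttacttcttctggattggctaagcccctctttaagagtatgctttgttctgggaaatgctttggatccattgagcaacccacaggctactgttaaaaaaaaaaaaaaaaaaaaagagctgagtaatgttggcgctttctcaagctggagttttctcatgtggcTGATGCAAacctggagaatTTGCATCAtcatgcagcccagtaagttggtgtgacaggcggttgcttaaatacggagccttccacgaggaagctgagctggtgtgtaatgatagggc
Slc1a3: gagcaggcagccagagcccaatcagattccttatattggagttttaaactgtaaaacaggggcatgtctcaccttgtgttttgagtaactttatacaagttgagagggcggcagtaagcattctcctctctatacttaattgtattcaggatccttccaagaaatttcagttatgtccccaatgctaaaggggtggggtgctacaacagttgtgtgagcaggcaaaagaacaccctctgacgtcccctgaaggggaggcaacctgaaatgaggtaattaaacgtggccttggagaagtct
These are chr11:20332664-20332963, chr14:54417653-54417952, chr3:50443564-50443863 and chr15:8710758-8711057, all on the minus strand. The match of Slc1a4 begins at position -4 from the start and reads on the opposite strand, that of Slc7a7 begins at position -243 of the promoter shown, and Slc7a11 has 2 matches, the earlier at -66. In the overlapping promoter of Slc7a7 the same site lies nearer the start. The other motifs searched were the E-box CACGTG, in 8 of the 55 promoters and in 7.15% of all, CCAAT, in 15 and 37.4%, and TATAAA, in 5 and 13.6%. A match of letters is a description and no test of binding.

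Cell type markers were read in the same embryos. The lists of blastocyst markers had signal above the floor in all groups, but some single markers did not. Gata4 was on the floor in male Purkinje, male CA1, Sertoli and female Purkinje clones. Sox7 was on it in both CA1 groups and Hand1 in male IVF embryos. The mean signal of 8 trophectoderm markers was 6.37 to 7.52, that of 6 inner cell mass and epiblast markers 3.53 to 5.20, and that of 8 primitive endoderm markers 4.07 to 5.22. Of the primitive endoderm markers 4 were lower in each of the 3 male clone groups, 3 in female Purkinje and CA1 clones and 0 in cumulus clones, and 1 was higher in male Purkinje and in Sertoli clones. The median change of the 8 primitive endoderm markers was -0.51, -1.157 and -1.419 in male Purkinje, male CA1 and Sertoli clones. It was -1.265, -1.101 and -1.085 in female Purkinje, female CA1 and cumulus clones. The cumulus median was thus near that of female CA1 clones, although no marker passed there. The part of these markers in the falls of Slc7a3, Slc1a3 and Slc1a4 was not tested. Among the trophectoderm markers 2, 1 and 2 were higher in the male groups and 2, 1 and 0 in the female ones, and 0, 2 and 2 and then 0, 1 and 0 were lower. Of the epiblast markers 1, 1 and 3 and then 1, 0 and 1 were higher, and 1 was lower, in Sertoli clones. Of the donor cells' markers, Camk2a of CA1 neurons was on the floor in both CA1 clone groups, and Pcp2 of Purkinje cells was at -0.64 and -0.38 in male and female Purkinje clones, against -0.35 and -0.80 in IVF embryos. Wfs1 of CA1 neurons and Amhr2 of cumulus cells were higher than in IVF embryos in all groups but cumulus, and 1 oocyte marker was higher in male CA1, Sertoli and female Purkinje clones. No marker of Sertoli cells passed in any comparison with IVF, where 3 were tested.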

How the data were processed

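RNA of single blastocysts had been amplified, labelled with Cy3 and hybridised to 1-colour Agilent mouse arrays. The deposited intensity values are the processed signals of Agilent Feature Extraction (version 10.5.1 in the submitters' processing notes), which per the file headers had their background subtracted by that software. The headers themselves give version 9.5.3.1 for the IVF and cumulus arrays and 10.5.1.1 for the neuronal and Sertoli arrays. A second table of log2 values was made by the authors, and compared with the scanner files it proved to be the log2 processed signal minus the 75th percentile, with each probe's median within a sex taken off; this was found from the values.

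Processed signals were divided by the 75th percentile of the array, floored at 0.09363 of it (the highest, over arrays, of the 1st percentile of signals well above background) and log2-transformed. The floor held 19.92% of the values of tested genes. A probe was kept if at least 1 group had it well above background in more than 50% of its arrays, at least 3 arrays had it above the floor and every group had at least 2 values, which left 22726 probes, and the brightest probe stood for a gene. Symbols came from accessions, current symbols or synonyms for 22951, 6659 and 3109 of 41174 probes, and 8455 kept the name in the files. The members were taken by the files' names.

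Group means of all 33 arrays were fitted in 1 model with limma 3.58.1 (lmFit, eBayes) in R 4.3.3, with Benjamini-Hochberg adjustment over 15757 genes, after the steps had been tested on simulated data. Every adjusted p is from this fit or its alternatives. Errors are standard errors of log2 differences. Folds come from floored values, which understate changes near the floor if dim signals are alike on the arrays compared. The number of arrays limits the precision.

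The set of families, taken by gene name, and the gene lists were chosen with earlier results of these data known. Members were named by these rules: called in at least 3 comparisons with IVF in 1 direction, among the 5 largest called rises or falls, among the 10 highest IVF levels, a founding member of a transport system, or called between clone groups, between the sexes or in an interaction. Genes of the pathway lists were named for the largest called changes. Alternatives changed the background correction, scaling, filter, floor, probe choice, blocks, groups fitted and arrays, and used the authors' table. Normexp used the median signal, and leaving out the Sertoli arrays was added after seeing the data. Replicate numbers did not pair the samples (median correlation of same-numbered deviations -0.012 over 99 pairs).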

Additional observations from a re-analysis of the deposited data

Results flagged for a closer look

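In 7 of the 120 sets of values of a member in a group of 4 or 7 embryos, 1 embryo lay far from the others by Dixon's criterion. This is near the 1 in 20 that chance gives for values without ties, a condition that sets with ties on the floor do not meet. Male IVF replicate 2 was the lowest of its group for Slc1a4 (-0.48, next embryo 1.56), for Slc1a5 (1.18, next 2.86) and for the taurine transporter Slc6a6 (2.92, next 3.42). Male Purkinje replicate 1 was at 1.60 for Slc6a12, the next at -1.73, and Sertoli replicate 4 at 0.16, with the other 3 on the floor at -3.42. With those 3 tied, any value above the floor would have been flagged. Female Purkinje replicate 4 was at 3.91 for Slc6a13, the next at 3.32. Male CA1 replicate 2 was at -0.54 for the LAT2 light chain Slc7a8, the next at 0.47.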

How the results depend on the processing

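Of the 48 calls of the members named, 13 held in every alternative (22 to 26 each) and 35 were lost in at least 1; none reversed. The share of all genes called stands in parentheses after each count. Normexp gave 13 members called in male Purkinje (30.9%) and 4 in female CA1 clones (3.96%) against IVF, 7 between male Purkinje and CA1 (24.8%), 2 between male Purkinje and Sertoli (9.07%), and 1 between male CA1 and Sertoli clones (2.6%). Scan day as a random block gave 4 in female Purkinje (12%) and 2 in female CA1 clones (6.82%) against IVF, 0 between male CA1 and Sertoli (4.02%) and 1 between female Purkinje and CA1 clones (3.8%). It removed 19 of the 48 calls. Without the low-signal Purkinje arrays 0 passed in female Purkinje clones against IVF (2.09%), 1 between male Purkinje and CA1 (3.81%), 0 between male Purkinje and Sertoli (1.18%) and 0 between female Purkinje and CA1 clones (0.597%). This leaves 1 female Purkinje embryo, assumed to vary like the other groups. Fits of only the groups compared gave 0 in female CA1 clones against IVF (5.31%), 1 between male Purkinje and CA1 (13.8%), 0 between male Purkinje and Sertoli (1.99%) and 2 between male CA1 and Sertoli clones (14.7%). Quantile normalization gave 1 in cumulus clones (7.14%), and scaling to the array median 5 between female Purkinje and CA1 clones (19.8%). The cause was not tested for any of these; fits of fewer groups hold fewer arrays.

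Leaving out 1 embryo at a time gave 7 to 8 members called in male Purkinje, 7 to 9 in male CA1, 8 to 10 in Sertoli, 3 to 7 in female Purkinje, 2 to 8 in female CA1 and 0 to 1 in cumulus clones against IVF. Between clone groups the range was 2 to 4 (male Purkinje and CA1), 1 to 3 (male Purkinje and Sertoli), 0 to 3 (male CA1 and Sertoli) and 1 to 3 (female Purkinje and CA1). It was 0 to 1 for the sex difference of the CA1 change. Without female IVF replicate 3 the female Purkinje, CA1 and cumulus counts were 3, 2 and 1, and without female IVF replicate 1 or female CA1 replicate 2 or 3 the female CA1 count was 4. The count between male Purkinje and Sertoli clones was 3 without Purkinje replicate 1 or Sertoli replicate 4 and 2 without Purkinje replicate 2. That between male CA1 and Sertoli clones was 0 without Sertoli replicate 2 or CA1 replicate 4, 1 without Sertoli replicate 1 or CA1 replicate 3, and 2 without Sertoli replicate 4. That between female Purkinje and CA1 clones was 1 without Purkinje replicate 3 or 4 or CA1 replicate 2. The sex difference of the CA1 change had 1 call without male IVF replicate 4 or female CA1 replicate 3.

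With the replicate block the counts against IVF were 7 in male Purkinje, 8 in male CA1, 7 in Sertoli, 6 in female Purkinje, 7 in female CA1 and 0 in cumulus clones; none moved by 1.5 times, and the numbers do not pair the samples. With the replicate block Slc1a4 did not pass in male CA1 clones (-1.64, adjusted p = 0.117) or Sertoli clones (-2.09, adjusted p = 0.0555). Genes at the floor, 22 members among them, could not be compared.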
